A study of Mus musculus with 26 samples.

Results

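The step from day 2 to day 4 of primordial germ cell-like cell (PGCLC) culture was followed in 3 mouse lines of strain 129Sv/J: an empty-vector control line (EV) and overexpression clones 1 and 2 of Tex10. Tex10 encodes a nuclear protein of ribosome biogenesis that is also known as a pluripotency factor. PGCLCs are grown from epiblast-like cells (EpiLCs), which model the epiblast just after implantation. The comparison set the day 4 libraries of EV, clone 1 and clone 2 against the day 2 libraries of the same lines, with the line as a block, so it used 6 of the 26 samples of the series. The EpiLC and day 6 libraries of these lines, 12 libraries in all, shared the estimate of the spread. All the cultures were labelled untreated. Each line has 1 library per day, and EV is 1 line. The p-values cover only how changes between stages varied among these 3 lines, since the block removes constant differences between lines. The labels do not mention sorting of reporter-positive or surface-marker-positive cells, and the cells of a library may be a mixture. In such bulk libraries, fewer cells of a type and less RNA per cell cannot be told apart. A second experiment of the series supplied a day 2 and day 4 pair for comparison: PGCLCs of a Tex10 degron line given DMSO, the vehicle of the degrader dTAG13, with 2 replicates a day.

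As background, mouse germ cells are induced from epiblast by BMP and WNT signals through Prdm1, Prdm14 and Tfap2c. They then leave the epiblast program, regain naive pluripotency genes, lose DNA methylation genome-wide and later switch on germline genes such as Dazl. In culture, EpiLCs that take up this course do so within aggregates, in which other cells can turn to mesoderm or other somatic fates.

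Expression is given below as TMM-scaled CPM (reads relative to a library size corrected for composition), the deposited unit, in the order EV, clone 1 and clone 2. The 6 libraries held 5227287 to 6854503 reads, so 1 read was worth 0.144 to 0.187 units and 3 reads 0.431 to 0.560 units, which covers counting error only. Of 50969 genes in the table, 15255 had a mean of at least 1 and were tested on log2(value + 1), a scale that understates the changes of low genes. Correlations of log2 values between libraries of the same day were 0.979 to 0.988, and between day 2 and day 4 of the same line 0.969 to 0.974. Tex10 itself stood at 160.5, 368 and 329.8 on day 2 and 147, 481 and 493 on day 4, higher in both clones than in EV on each day, and its step was higher in the clones (clones minus EV 0.61 on the log2 scale). Reads of mitochondrial genes made up 5.79% to 8.46% of these libraries. A 0 in this table cannot be read as absence, since 6 of the 13 protein genes of the mitochondrial genome, mt-Co2 and mt-Atp6 among them, were listed at 0 in all 6 libraries while mt-Co1 stood at 21847 or more.

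From day 2 to day 4, 3509 genes changed, which is 23% of those tested: 1694 rose (11.1%) and 1815 fell (11.9%). The median change over all genes tested was -0.01 on the log2 scale. Changes were mostly modest: the median size among the genes called was 0.53 on the log2 scale, and 580 genes (3.8% of those tested), 312 higher and 268 lower, moved by at least 1. The direction was the same in all 3 lines for 3436 of the 3509 genes, and for 2930 of them every day 4 library lay beyond every day 2 library. The genes were called from these same 3 lines, so neither count is a separate check of the calls. Over all genes tested, 16.1% had every day 4 library above every day 2 library and 15.2% had every one below. These shares are the background for the counts of each gene list.

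Among called genes with separate days and a mean of at least 10 on the higher day, the largest rise on the log2(value + 1) scale belonged to Aire, the regulator known for promiscuous gene expression in the thymus. Aire was at 7.61, 1.39 and 4.24 on day 2 and 49.2, 29.1 and 29.7 on day 4, a log2 fold change of 2.92 (SE 0.20, adjusted p = 1.7e-11). Its EpiLC libraries had stood at 41.8, 38.2 and 31.3, above the day 2 values of every line. Aire (chr10:78030022-78043610, minus strand) overlaps Dnmt3l (chr10:78041947-78063622, plus strand), and how reads in the overlap were assigned was not tested. Nkx6-3, a homeobox gene, was at 0, 0 and 0 in EpiLCs, at 2.59, 0.308 and 0.908 on day 2 and at 16.4, 10.4 and 8.77 on day 4 (log2 fold change 2.58, SE 0.28, adjusted p = 9.2e-08). By the ratio of day 4 to day 2 means, Nkx6-3 (9.35) and the keratin Krt19 (8.99) were above Aire (8.15). The remaining 10 of the 12 largest rises on the log2 scale spanned log2 fold changes of 2.08 to 2.52. They were Krt19, the membrane protein Emp1, Ankrd33b, the secreted matricellular protein Ccn1, Phlda1, the AP-1 subunit Fosl2, the semaphorin Sema5b, the imprinted RNA H19, the adhesion receptor Adgra2 and the protease Htra1. Phlda1 went from 7.61, 4.47 and 7.87 to 33.6, 35.4 and 38.3, with log2 changes of 2.00 in EV, 2.74 in clone 1 and 2.15 in clone 2. Ankrd33b rose more in the clones, from 9.48, 1.39 and 3.48 to 19.2, 28.1 and 25.9.

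The 12 largest decreases held Trh, which encodes thyrotropin-releasing hormone. Trh fell from 256, 314 and 351 on day 2 to 56.6, 67.5 and 61.4 on day 4 (log2 fold change -2.28, SE 0.13, adjusted p = 6.7e-13) and was at 60.4, 63.3 and 58.5 on day 6. Lefty1, a secreted inhibitor of Nodal, fell from 162, 135 and 143 to 39.4, 30.4 and 29.7 (log2 fold change -2.12, SE 0.13, adjusted p = 3.9e-12). Fgf15, a growth factor of the early embryo, went from 44, 43.4 and 44.8 to 13.2, 11.5 and 6.72, and Vrtn, a DNA-binding protein named for its role in vertebral number, from 41.5, 30.8 and 35.1 to 14.6, 6.85 and 4.11. As with the rises, only genes whose day 2 and day 4 libraries did not overlap were eligible. Prom2, Atp10a and Nlrp9b were also in this group. The remaining members were Zscan4d, Eif1ad15, Eif1ad8, Usp17lb and Dppa3-ps, which have close copies elsewhere in the genome, so that the split of reads between copies is uncertain.

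**Figure D1:**
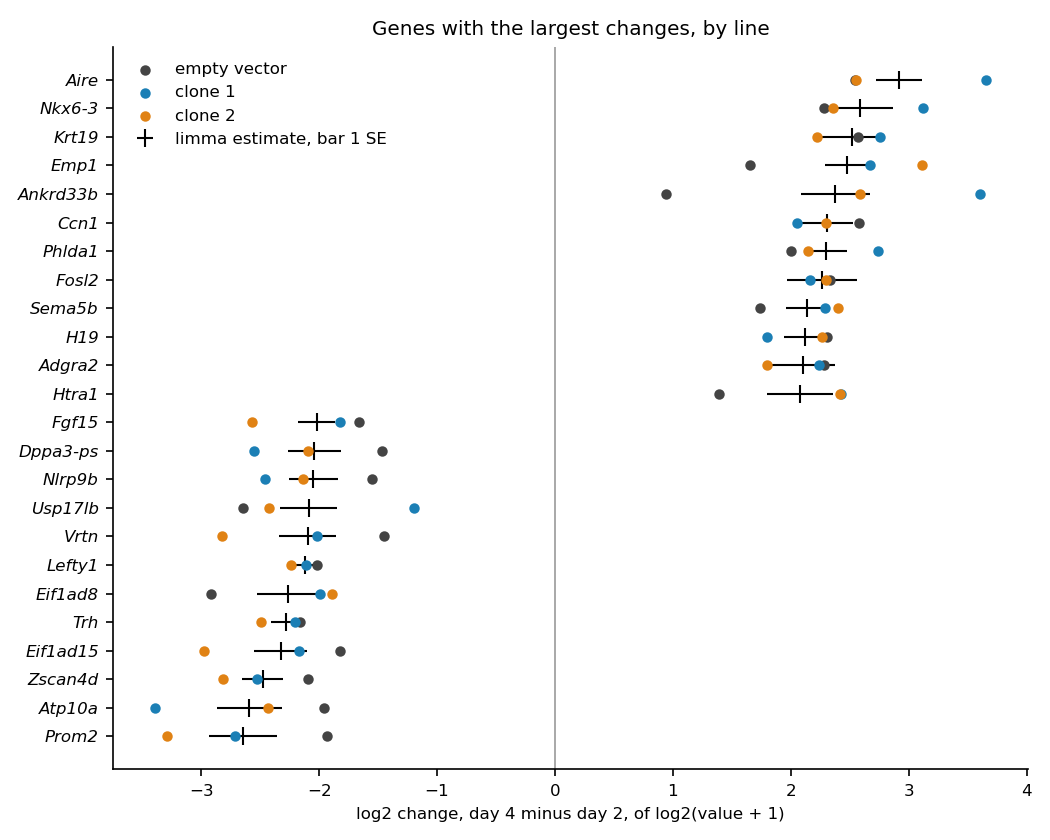
Log2 change from day 2 to day 4 of log2(value + 1) for the 12 largest rises and 12 largest falls. Coloured points are the lines (1 library per day each), black marks the limma estimate with 1 SE. The genes were chosen to have separate days, which by itself places the 3 lines on the same side of 0 in all 24. The lines of Ankrd33b are spread widely.

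Genes of germ cell specification did not move as one. Of 12 tested, 2 rose and 4 fell, with a median log2 fold change of -0.09. The defining regulators Prdm1 and Prdm14 were not called: Prdm14, a repressor of the epiblast program, was at 4.06, 2.24 and 1.79 in EpiLCs, 40.5, 50.2 and 45.6 on day 2 and 42.8, 45.8 and 43.5 on day 4. Prdm1, which encodes BLIMP1, went from 28.4, 31.9 and 26.8 to 28.8, 25.7 and 27.6. For both, the day 2 and day 4 values overlapped (adjusted p = 0.89 for Prdm14 and 0.74 for Prdm1). The RNA-binding proteins Nanos3 and Dnd1, which protect early germ cells, were not called either (log2 fold changes -0.10 and 0.10).

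The third regulator, Tfap2c, fell. It was at 164, 188 and 192 on day 2 and 132, 76.5 and 74.7 on day 4 (log2 fold change -0.98, SE 0.19, adjusted p = 3.7e-04). Both clones dropped further than EV, and the difference of clones from EV was -1.01 on the log2 scale (SE 0.22, adjusted p = 0.0040). Without the mean-variance trend in the model, neither the fall of Tfap2c nor this difference was called.

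The receptor Kit, which germ cells need to survive and migrate, rose from 65.9, 79.5 and 92.5 to 119.5, 103 and 106 (log2 fold change 0.47, SE 0.11, adjusted p = 0.0030). Its call was lost without the day 4 EV library, the highest of the 6, and without the variance trend. Itgb3, an integrin used to recognise PGCLCs, rose at low levels from 2.87, 6.16 and 4.39 to 7.36, 7.02 and 10.3, a call lost without EV or clone 2, without the block, without the variance trend, with no filter on low values and with a pseudocount of 0.1. Leaving out single lines or libraries gave 0 to 2 rises in this list, 0 without the day 4 library of EV, and 2 to 5 falls, 2 without the day 2 library of clone 2. Ifitm1, an early marker of nascent germ cells, fell from 28.3, 58.9 and 76.7 to 20.1, 19.2 and 32.9 (log2 fold change -1.08, adjusted p = 1.7e-04), with the EV day 2 library inside the day 4 range. Its neighbour Ifitm3 also fell, from 117, 187 and 213 to 65.9, 138 and 158, with overlapping days, and its call was lost with DESeq2, without the block, without the variance trend and without clone 1. Dppa3, the maternal factor Stella, was near the level of 3 reads at day 4 (1.29, 1.39 and 5.15 on day 2, 0.46, 0.334 and 0.56 on day 4). Its processed pseudogene on the X chromosome, Dppa3-ps (chrX:37625647-37626097, mm10), carried more reads, 14.5, 45.1 and 48.7 on day 2 and 4.6, 6.85 and 10.6 on day 4. The call of Dppa3 was lost without clone 2. Reads may be split between the gene and its copy, and both fell.

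**Figure D2:**
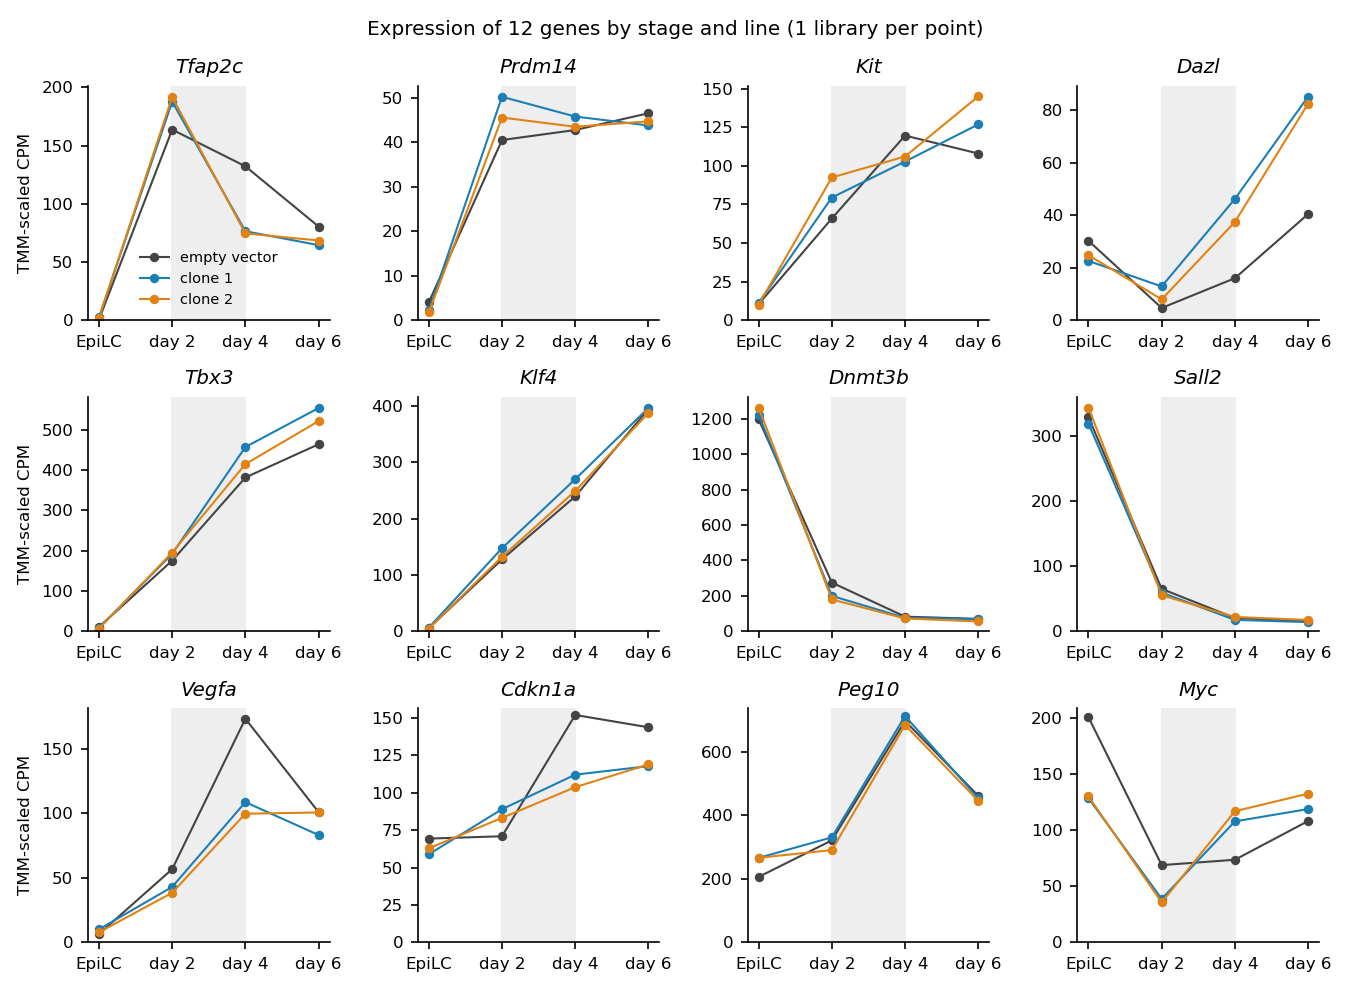
Expression (TMM-scaled CPM, linear axes from 0) of 12 genes in EpiLCs and at days 2, 4 and 6, 1 library per point, with the day 2 to day 4 step shaded. Prdm14 was not called, Tbx3, Klf4 and Dazl climbed, Dnmt3b and Sall2 fell, and Tfap2c, Cdkn1a and Myc took a different step in EV and the clones.

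Genes that act later in the germline rose in part. Of 24 listed, 18 were tested, 6 rose and 0 fell, with a median log2 fold change of 0.53. Leaving out single lines or libraries gave 3 rises without clone 2 and 10 without EV, and no falls. Dazl, an RNA-binding protein that commits germ cells to their fate, went from 4.74, 12.9 and 8.02 to 16.1, 46.3 and 37.5 (log2 fold change 1.81, SE 0.21, adjusted p = 3.2e-07) and on to 40.5, 85.3 and 82.6 at day 6. Each line was higher on day 4 than any line on day 2, although EV was lowest on both days. Tex19.1, which guards against retrotransposons, rose from 31.5, 33.1 and 37.5 to 46.4, 95.3 and 86 (log2 fold change 1.07, SE 0.19, adjusted p = 1.3e-04), and rose further in the clones than in EV (difference 0.79, adjusted p = 0.0053). The rise of Tex19.1 was not called without the variance trend.

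Some genes of this list are known from the piRNA pathway, which silences transposons; no list was fixed for that pathway. Piwil2, Rnf17 and Mov10l1 rose, Ddx4, Fkbp6, Mael and Tdrkh were tested and not called (log2 fold changes 0.51, 0.58, 0.41 and 0.02), and Asz1 and Gtsf1 were not tested. Piwil2 went from 15.7, 18.9 and 12.4 to 27.1, 32.1 and 26.1 (log2 fold change 0.83, adjusted p = 7.4e-04). Rnf17 rose from 17.2, 14.3 and 14.1 to 23.3, 20.2 and 24.1, and Mov10l1, the helicase of primary piRNA production, from 3.3, 2.77 and 4.24 to 4.6, 9.86 and 8.96 (adjusted p = 0.016). Taf7l, a germ cell form of a TFIID subunit, was below 1.2 in each day 2 library and at 2.45, 3.18 and 3.36 on day 4. The calls of Mov10l1 and Taf7l were lost without either clone, and that of Rnf17 without clone 2. The meiotic gatekeeper Stra8 was already at 9.77, 7.24 and 6.51 on day 2 and was not called on day 4 (11, 8.19 and 5.04), before values of 25.9, 23.4 and 27.1 at day 6. Sycp1, of the meiotic synaptonemal complex, was below 1 in all 6 libraries.

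The E-box letters CACGTG, known from promoters of germline genes that are silenced in other cells, were searched in RefSeq promoter windows (250 bases before to 50 after the start, GRCm38.p6; CACGTG reads the same on both strands). Of the 15255 genes tested, 10400 matched a window, and 11.9% of these held CACGTG. Of the late germline genes, 16 matched and 9 held it. Among the 4 matched genes of this list that rose, Taf7l and Mov10l1 held it and Dazl and Tex19.1 did not. The 250 bases before the start of the first pair are shown with CACGTG in capitals, to place it: for Taf7l at chrX:134476491-134476740 on the minus strand, with the capitals beginning 49 bases before the start, and for Mov10l1 at chr15:88982744-88982993 on the plus strand, with the capitals 246 bases before it.
Taf7l: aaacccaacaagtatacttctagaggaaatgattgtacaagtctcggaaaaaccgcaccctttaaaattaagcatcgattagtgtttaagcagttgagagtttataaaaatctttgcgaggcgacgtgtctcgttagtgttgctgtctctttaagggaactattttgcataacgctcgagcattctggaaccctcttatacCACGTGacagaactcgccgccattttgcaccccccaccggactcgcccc
Mov10l1: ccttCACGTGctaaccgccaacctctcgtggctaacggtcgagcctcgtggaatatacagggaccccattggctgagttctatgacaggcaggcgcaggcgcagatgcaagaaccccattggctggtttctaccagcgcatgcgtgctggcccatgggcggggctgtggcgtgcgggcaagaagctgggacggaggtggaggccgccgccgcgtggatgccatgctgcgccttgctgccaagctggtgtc
Over all genes called, the windows of those that rose held CACGTG in 9.72% and of those that fell in 11.4%, against 10.01% of the windows of all genes tested.

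Naive pluripotency genes, which mark the preimplantation-like state, rose in part. Of 16 tested, 7 rose and 1 fell, with a median log2 fold change of 0.20. Tbx3, a T-box factor of the naive network, was at 11, 8.8 and 7.01 in EpiLCs and went from 175, 192 and 195 on day 2 to 381, 457 and 414 on day 4 (log2 fold change 1.15, SE 0.10, adjusted p = 3.6e-09). Klf4 rose from 128, 147 and 132 to 239, 269.7 and 249 (log2 fold change 0.89, SE 0.09, adjusted p = 1.1e-08), and the 3 lines were close on each day. Tfcp2l1 rose from 387, 481 and 475 to 678, 781 and 721. Esrrb, Nr0b1, Klf5 and Tcl1 also rose, with log2 fold changes of 0.42, 0.45, 0.53 and 0.57. Klf5 rose further in the clones (difference 0.44, adjusted p = 0.032), a difference not called without the block, without the variance trend or with DESeq2. Dppa5a, an RNA-binding protein of embryonic stem cells, fell from 242, 363 and 367 to 133, 219 and 251, with overlapping days. With single lines or libraries left out, 6 to 8 rises and 1 to 3 falls were called in this list, with 3 falls without EV or without its day 2 library. Tcl1 was among the calls lost without clone 2 and without the day 4 library of clone 1.

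The core factors Pou5f1, Sox2 and Nanog were not called. Sox2 was at 814, 857 and 878 on day 2 and 852, 861 and 859 on day 4, and Pou5f1 at 696, 705 and 852 and 643, 762 and 809. Of the 6 genes in the core list, 1 changed: Lin28a, which blocks let-7 maturation, fell from 566, 469.7 and 494 to 317, 287 and 319 (log2 fold change -0.72, adjusted p = 6.2e-08). Without EV or without its day 2 library, that list had 1 rise and 2 falls. Genes of the LIF pathway, which sustains the naive state, rose in part: of 7 tested, the receptor Lifr, the transducer Stat3 and its target Socs3 rose and none fell. Stat3 went from 74.7, 67.3 and 63.3 to 106, 124 and 121 (log2 fold change 0.76, SE 0.10, adjusted p = 2.3e-06), and Socs3 from 138, 129.6 and 124 to 198, 217 and 204, with separate days in both. The call of Lifr was lost without clone 1 and without the variance trend.

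Genes of the formative epiblast, the state of EpiLCs, fell together. Of 13 tested, 11 fell and 1 rose, with a median log2 fold change of -0.76; leaving out each line or library left 9 to 11 falls. Several had been far higher in EpiLCs: Sall2, a zinc finger factor, was at 329, 319 and 344 in EpiLCs, 65.4, 59.6 and 55.6 on day 2 and 20.7, 17.7 and 22.2 on day 4 (log2 fold change -1.53, SE 0.11, adjusted p = 2.3e-11). Pou3f1 (OCT6) went from 370.0, 316 and 345 in EpiLCs to 26.6, 18.9 and 21.5 and then 14.9, 9.36 and 11.8. Otx2, which restricts entry into the germline, went from 49.8, 45.3 and 55.4 to 35.7, 22.7 and 30.8 (log2 fold change -0.75, adjusted p = 6.7e-04), a call lost without the variance trend.

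Zic2 and Zic5, zinc finger factors of the epiblast, had higher values again at day 6. Zic2 was at 148, 130.3 and 118 on day 2, 104, 70.2 and 71.7 on day 4 and 184, 135 and 128 on day 6, and Zic5 at 60.3, 56.4 and 67.1, 42.1, 33.6 and 29.3 and 79.8, 61.2 and 54.5. Lin28b fell from 157, 112 and 112 to 95.9, 64.3 and 64.6. The exception was Foxd3, a forkhead factor of both epiblast and naive cells, which rose from 40.2, 26.2 and 37.4 to 51, 79.4 and 70.7 (log2 fold change 0.93, SE 0.13, adjusted p = 5.2e-06), more in the clones than in EV (difference 0.90, adjusted p = 0.0031).

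Of 10 genes that write or erase DNA methylation, 2 rose and 2 fell, with 3 rises without EV or without its day 2 library. The de novo methyltransferase Dnmt3b fell from 275, 200.3 and 180.1 to 83.2, 76.7 and 73 (log2 fold change -1.46, SE 0.09, adjusted p = 4.7e-12), and Dnmt3a from 191, 129.9 and 134 to 136, 96.4 and 107. The maintenance genes Dnmt1 and Uhrf1 were not called: Dnmt1 was at 171, 147 and 151 on day 2 and 150.4, 152 and 141 on day 4, and Uhrf1 at 288, 271 and 269 and 227, 268 and 251. Of the oxidases that remove methylation, Tet2 rose from 566, 637 and 596 to 821, 903 and 911 (log2 fold change 0.55, adjusted p = 8.4e-06), while Tet1 and Tet3 were not called. Dnmt3l, the catalytically inactive partner of the de novo enzymes, went from 15.1, 7.09 and 6.21 to 15, 21.6 and 24.3: EV stayed level and both clones rose, a difference of 1.65 (SE 0.25, adjusted p = 6.4e-06). Of 15 histone methyltransferases and demethylases, 5 rose (Ehmt2, Setdb1, Kdm1a, Kdm3a and Kdm6b) and Suv39h1 fell, all by less than 0.5 on the log2 scale; 2 to 5 rises and 0 or 1 falls were called when single lines or libraries were left out. The call of Ehmt2 was lost without either clone, that of Kdm3a without clone 1 and that of Setdb1 without clone 2.

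Genes of the signalling pathways that act in germ cell induction were described by role. In the BMP list of 18 tested, 3 rose and 2 fell. The ligand Bmp4, the inducer of germ cells in the embryo, rose from 47, 38.1 and 44.2 to 104, 102 and 113 (log2 fold change 1.29, SE 0.13, adjusted p = 3.2e-08), and the transducer Smad1 by 0.34. The BMP antagonist Nog was listed at 0, 0.154 and 0 on day 2 and at 1.69, 3.01 and 0.933 on day 4. The target gene Id2 fell from 107, 103 and 106 to 57.9, 51 and 57.7 (log2 fold change -0.91, adjusted p = 1.0e-05), and the receptor Bmpr1b fell at levels below 5, a call lost with edgeR, with DESeq2 and without either clone. The calls of Smad1 and Nog were lost without clone 1, and that of Smad1 also without clone 2, so that 1 to 3 rises and 1 or 2 falls were called when single lines or libraries were left out. Bmp4 and Id2 thus moved in opposite directions, each with separate days.

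In the Wnt list of 16 tested, 2 rose and 3 fell. Sfrp2, a secreted Wnt modulator, fell from 35.8, 33.6 and 34.7 to 8.58, 8.02 and 7.65 (log2 fold change -1.97, SE 0.21, adjusted p = 4.0e-08), and the 3 lines nearly coincided on both days. The effector Tcf7 fell from 92.9, 99.4 and 110.2 to 57.8, 58.2 and 70.4, and the ligand Wnt8a from 12.5, 4.47 and 4.84 to 4.9, 2.51 and 2.43, a call lost without EV, without either clone and without the block. The feedback inhibitor Notum rose from 15.9, 14.9 and 14.1 to 22.8, 24.7 and 24.1, and Sfrp1 from 104, 50.1 and 52.1 to 126, 87.7 and 88.3, the latter a call lost without the block. The list had 2 or 3 rises and 2 or 3 falls when single lines or libraries were left out.

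Of 14 genes of the FGF and MAPK list, 4 rose and 3 fell. The step of 4 of the 14 differed between clones and EV, against 1.44% of all genes tested. Etv4 and Spry4, targets of FGF signalling, were lower in the clones on day 2 and then rose there. Etv4 went from 55.7, 25.4 and 32.7 to 61.5, 72.5 and 62.7 (clones minus EV 1.06, adjusted p = 5.5e-04), and Spry4 from 318, 199 and 181 to 304, 323 and 282 (clones minus EV 0.73, adjusted p = 3.1e-04). Egr1, an immediate-early gene, rose in all 3 lines, from 34.5, 56.8 and 50.7 to 92.6, 83.2 and 80.4 (log2 fold change 0.87, adjusted p = 2.6e-06), here more in EV. Dusp4, which switches off MAP kinases, and the receptor Fgfr2 fell, by 0.72 and 1.22 on the log2 scale, and the ligand Fgf4 fell from 340.3, 452 and 427 to 292, 339 and 318. The calls of Fgf4 and Spry4 were lost without either clone, with no filter on low values and without the trend, and those of Spry4 and Dusp4 without the block. With single lines or libraries left out, 2 to 5 rises and 2 or 3 falls were called, with 2 rises without clone 1 and 5 without EV.

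Genes of primitive streak and mesoderm rose in part, at low levels. Of 23 listed, 14 were tested, 7 rose and none fell, with a median log2 fold change of 0.86. The summed level of the 23 genes was 43.1, 36.7 and 43.1 on day 2 and 118, 66.5 and 70.6 on day 4, when EV was highest. Hand1, a factor of lateral and extraembryonic mesoderm and of trophoblast, was at 0.718, 0.154 and 1.06 on day 2 and 15.9, 3.68 and 2.8 on day 4 (log2 fold change 2.07, SE 0.36, adjusted p = 9.8e-05). Brachyury (T) was at 0.575, 0.462 and 0.454 and 6.59, 0.836 and 1.49, so that most of its rise came from EV. Its call was lost without EV or clone 2, without the block, without the variance trend and with a pseudocount of 0.1. Cdx1 went from 0.718, 0.308 and 1.36 to 6.74, 6.68 and 3.92, Msx2, a call lost without EV, from 5.75, 8.47 and 12 to 24.1, 13.4 and 18.1 and Eomes from 11.8, 6.32 and 9.84 to 23.1, 18.5 and 15.7. Evx1 and Snai1 were the other members called; the call of Evx1 was lost with edgeR and with DESeq2, both were lost without clone 2, and Evx1 also without clone 1. Without EV, 5 rises and 1 fall were called, 4 rises without clone 2 or without the day 2 library of EV or of clone 2, and 2 to 7 rises with edgeR, DESeq2 and the other settings. The part of a mixed cell population in these values was not tested.

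Many markers of other lineages were at or near 0. Hoxd3 and Hoxd4 were at 0 in all 6 libraries, and of 39 Hox genes, 11 were tested, Hoxc13 rose from 4.45, 2.62 and 2.88 to 7.97, 11 and 8.4 and Hoxa5 fell from 6.75, 2.46 and 3.78 to 1.99, 0.167 and 0.933. Of 14 endothelial and blood markers, 5 were tested and none was called by limma, with 1 called without EV; 8 of the 14, Cdh5 and Gfi1b among them, were below 1 in all 6 libraries, and the embryonic globins Hbb-y and Hbb-bh1 were at 0. The summed level of that list, 73.1, 89.2 and 82.7 on day 2 and 80.8, 91.7 and 82.9 on day 4, was mostly Pecam1, which pluripotent cells also express. Of 12 trophoblast markers, 6 were tested and 2 rose (Krt8, a call lost without EV or clone 1, and Hand1), and Elf5, Prl3d1 and Tpbpa were at 0. Of 8 endoderm genes, 5 were tested and 2 rose: Gata4 from 3.74, 3.24 and 3.18 to 6.59, 7.85 and 7.65, and Gata6 from 0.575, 0 and 0.303 to 1.53, 2.84 and 3.73, while Cer1 was at 0. The call of Gata4 was lost without either clone and with no filter on low values, and 1 to 3 rises were called in that list when single lines or libraries were left out. Of 12 extraembryonic endoderm markers, 6 were tested, Gata6, Cubn and Dab2 rose and Apoe fell from 826, 888 and 1055 to 663, 658 and 621, and Afp and Ttr were at 0. In that list 1 to 3 rises were called when single lines or libraries were left out, with 1 without clone 2, and none with a mean of at least 5 required. Of 9 neural markers, 6 were tested and 3 fell, Pax6, Nes and Map2, with 0 to 2 falls and 0 to 2 rises when single lines or libraries were left out, 2 rises and 1 fall without EV. Without either clone no neural marker was called. Pax6 and Nes were not called without the block, and Pax6 was not called with DESeq2. The step of 3 of the 6 differed between clones and EV, against 1.44% of all genes tested: the clones' step was higher in Sox1 (1.57) and Tubb3 (0.66) and lower in Nes (-0.63). Of 8 surface ectoderm markers, 2 were tested and neither was called, and Krt5, Krt14 and Trp63 were below 1 in all 6 libraries.

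Genes of adhesion and mesenchymal transition moved both ways: of 16 tested, 4 rose and 6 fell. E-cadherin (Cdh1) fell from 726, 835 and 878 to 533, 523 and 506 (log2 fold change -0.64, SE 0.07, adjusted p = 9.1e-08), and Epcam from 87.3, 89.5 and 104 to 64.4, 60.8 and 53.8. The claudins Cldn6 and Cldn7 of tight junctions fell, Cldn6 from 98.7, 151 and 155 to 67.4, 55.3 and 51.5, and each fell further in the clones (differences -0.96 and -1.19, adjusted p = 0.0011 and 0.045). The difference of Cldn7 was not called without the block, without the variance trend, with no filter or with a pseudocount of 0.1, and that of Cldn6 was lost without the trend. The intermediate filament gene Vim rose from 72.4, 32.2 and 35.1 to 145, 122 and 132 (log2 fold change 1.59, SE 0.13, adjusted p = 1.0e-09), and the repressor Zeb1 from 9.77, 8.01 and 8.33 to 33.6, 35.9 and 33 (log2 fold change 1.86, SE 0.16, adjusted p = 2.0e-09). The related Zeb2 fell from 14.2, 8.47 and 6.66 to 6.44, 4.85 and 4.29, and its call was lost without EV or either clone. The integrin Itga5 rose by 0.60 and Itgb1 fell by 0.41 on the log2 scale, and Snai1, a call lost without clone 2, was the other rise. When single lines or libraries were left out, 3 or 4 rises and 5 or 6 falls were called.

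Genes of the extracellular matrix rose more often than they fell, with 7 rises and 2 falls of 12 tested in a list of collagens and laminins that also holds Sparc. Lama1, a laminin chain of early basement membranes, rose from 7.33, 2.46 and 5.3 to 17.5, 18 and 21.8 (log2 fold change 1.82, SE 0.27, adjusted p = 1.2e-05), and the collagen IV gene Col4a1 from 6.61, 1.69 and 3.63 to 12, 8.86 and 6.72, a call lost without clone 1. Sparc, a matrix-binding protein, rose from 76, 69 and 79.8 to 121, 152 and 142. Lamb1 fell from 52.3, 49.6 and 51.5 to 25.9, 24.1 and 29.7 and Col18a1 from 243, 208 and 211 to 131, 119 and 131, so that laminin chains moved both ways. When single lines or libraries were left out, 4 to 7 rises and 2 falls were called.

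Targets of the hypoxia response rose in part. Of 12 tested, 8 rose and none fell, with a median log2 fold change of 0.77. By line the median change was 1.06, 0.68 and 0.41, highest in EV. In the test of the step, none of the 12 differed between clones and EV, against 1.44% of all genes tested. Ndrg1 went from 29, 18.6 and 20.7 to 109, 83.1 and 74.5 (log2 fold change 1.92, SE 0.13, adjusted p = 2.3e-11), the angiogenic factor Vegfa from 56.7, 43 and 38.4 to 173, 109 and 99.7 (log2 fold change 1.42, adjusted p = 8.4e-08) and the mitophagy gene Bnip3 from 38.5, 37.1 and 36.2 to 110.0, 72.2 and 61.4. Egln1, the oxygen sensor that marks HIF for destruction, rose from 53.9, 43.3 and 38 to 125, 77.4 and 85.9. The prolyl hydroxylase P4ha1 rose from 25.1, 24.6 and 22.1 to 57.8, 34.4 and 29.3, a call that was lost without EV. Ankrd37, Car9 and Kdm3a were the other rises; the call of Ankrd37 was lost without EV, without either clone, with DESeq2 and with no filter on low values, and that of Kdm3a without clone 1. Vegfa, Egln1 and Bnip3 were higher on day 4 in EV than in either clone. Adm, P4ha2, Egln3 and Mxi1 were not called. Without EV, 5 of the 12 rose, with a median of 0.58, and 5 rose without clone 1.

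Glycolytic genes rose in part, with 8 rises and 1 fall of 17 tested and a median of 0.16. The glucose transporter Slc2a1 went from 347, 271 and 257 to 657, 457 and 457 (log2 fold change 0.83, SE 0.10, adjusted p = 3.2e-07), hexokinase Hk2 from 125, 126 and 148 to 223, 249 and 251 and phosphofructokinase Pfkp from 261, 237 and 244 to 608, 413 and 411. The rise of Slc2a3 was not called without EV, without clone 1 or without the block. The steps of Pfkp and Slc2a3 were larger in EV (clones minus EV -0.44 and -0.59, adjusted p = 0.026 and 8.0e-05). The fall was that of Gapdh, at 50.4, 45.1 and 51.3 on day 2 and 35.1, 32.1 and 33.6 on day 4; Gapdh has many processed copies and its count here is uncertain. Without clone 1, 5 rises were called, and without the variance trend 4.

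The core letters of the hypoxia response element, ACGTG, searched on both strands, were in the promoter windows of 29.4% of the 10400 matched genes, and in 9 of 11 matched hypoxia genes. ACGTG is contained in CACGTG, so the searches overlap. The 250 bases before the start are shown for 3 of the genes that rose, with each match in capitals: Bnip3 at chr7:138909507-138909756 (minus strand), where matches on both strands join to CACGTG, Egln1 at chr8:124949255-124949504 (minus strand), and P4ha1 at chr10:59323046-59323295 (plus strand), where the match is on the opposite strand, 16 bases before the start.
Bnip3: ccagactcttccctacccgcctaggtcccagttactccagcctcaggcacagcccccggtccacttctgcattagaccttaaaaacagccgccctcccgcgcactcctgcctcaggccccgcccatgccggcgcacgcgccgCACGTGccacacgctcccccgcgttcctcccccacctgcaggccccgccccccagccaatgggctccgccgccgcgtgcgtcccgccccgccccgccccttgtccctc
Egln1: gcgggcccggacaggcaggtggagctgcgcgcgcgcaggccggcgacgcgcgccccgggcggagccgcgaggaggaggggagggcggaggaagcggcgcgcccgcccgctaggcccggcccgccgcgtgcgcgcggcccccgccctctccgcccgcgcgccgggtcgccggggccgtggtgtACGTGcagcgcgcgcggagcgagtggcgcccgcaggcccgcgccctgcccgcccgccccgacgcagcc
P4ha1: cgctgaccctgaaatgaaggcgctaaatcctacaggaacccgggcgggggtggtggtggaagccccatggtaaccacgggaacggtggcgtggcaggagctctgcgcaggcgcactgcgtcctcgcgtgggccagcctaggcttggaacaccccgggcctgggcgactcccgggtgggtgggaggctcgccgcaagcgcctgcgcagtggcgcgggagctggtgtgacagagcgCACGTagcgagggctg
Over all genes called, the windows held ACGTG in 24.7% of those that rose and 24.91% of those that fell, against 25.4% for all genes tested.

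Targets of p53, the stress-response factor, rose in part: of 19 tested, 8 rose and none fell, with a median of 0.28. Mdm2, the ubiquitin ligase of p53, went from 217, 267 and 270.1 to 334, 349.6 and 359.7 (log2 fold change 0.47, SE 0.08, adjusted p = 1.2e-04), Btg2 from 63.4, 79.8 and 79.5 to 107, 114 and 114 and the desmosomal protein Perp from 58.9, 55.2 and 56.8 to 83.8, 88.6 and 91.8. The cell cycle inhibitor Cdkn1a (p21) rose from 71, 89 and 83.3 to 152, 112 and 104 (log2 fold change 0.58, adjusted p = 2.4e-04). Its step was larger in EV than in the clones (clones minus EV -0.77, adjusted p = 0.0023). The steps of Phlda3 and Trp53inp1 were also larger in EV (clones minus EV -0.58 and -0.50). In all, the step of 3 of the 19 differed, against 1.44% of all genes tested. Plk2 rose by 0.58, Phlda3 by 0.35 and Trp53inp1 by 0.37, and Eda2r was the eighth. The call of Phlda3 was lost without EV or clone 1, and those of Phlda3 and Trp53inp1 without the block. The apoptosis genes Bax, Bbc3 and Pmaip1 were not called. Without EV, 6 rose and 1 fell, and 5 rose without the day 2 library of EV, without the block or without the variance trend.

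Cell cycle genes moved both ways, with 3 rises and 5 falls of 20 tested and a median of -0.06. The D cyclins, which start the cycle in G1, went different ways: Ccnd1 fell from 195, 159.6 and 172 to 129.7, 127 and 128 (log2 fold change -0.45, adjusted p = 2.3e-04), Ccnd2 rose from 49.8, 29.3 and 34.5 to 92.6, 51.1 and 55.6 and Ccnd3 from 133, 157 and 159.9 to 229, 269.9 and 268 (log2 fold change 0.76, SE 0.10, adjusted p = 1.6e-06). The replication clamp Pcna fell from 107, 118 and 119 to 76.5, 94.9 and 102, a call lost without clone 1, and the mitotic cyclin Ccnb1 from 126, 141 and 141 to 112, 115 and 108, a call lost without either clone. When lines or libraries were left out, 2 to 4 rises and 1 to 5 falls were called. The AP-1 subunit Jun rose in each line, from 53, 29.7 and 29.7 to 145, 73 and 66.3 (log2 fold change 1.28, SE 0.11, adjusted p = 2.2e-09), with EV the highest on both days.

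**Figure D3:**
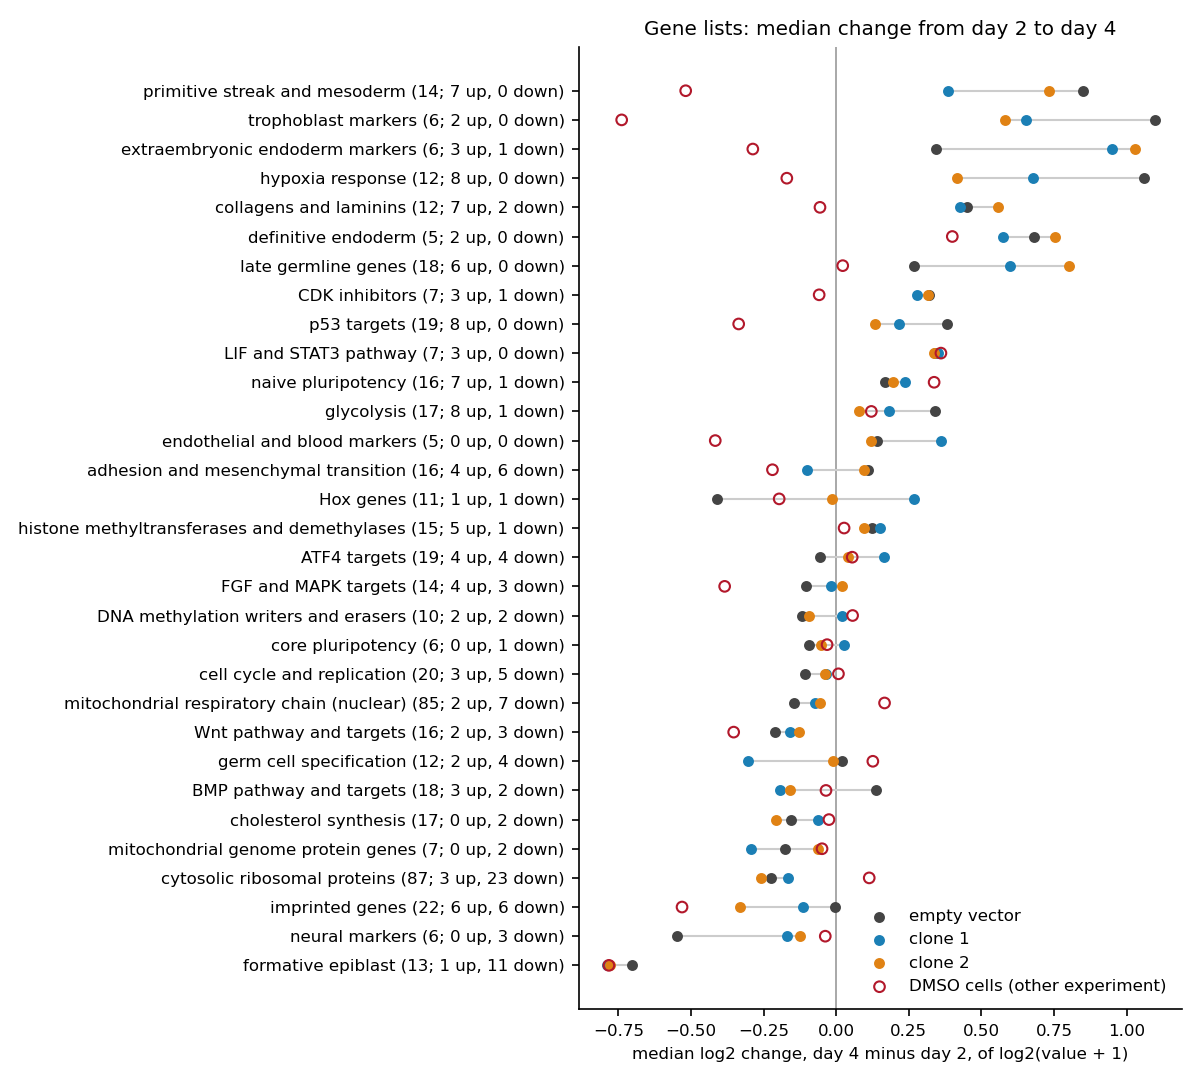
Median log2 change from day 2 to day 4 of the gene lists with 5 or more genes tested; each label gives the number tested and how many rose and fell. Filled points are EV and the 2 clones, open circles the DMSO cells of the second experiment. The formative epiblast list has all 4 points between -0.79 and -0.70, and the p53 list has the 3 vector lines above 0 and the DMSO cells below.

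Imprinted genes, expressed from 1 parental allele, moved in both directions: of 22 tested, 6 rose and 6 fell. H19 (chr7:142575529-142578143, mm10), a noncoding RNA on chromosome 7, rose from 7.04, 16.6 and 14.8 to 38.8, 60.5 and 75 (log2 fold change 2.12, SE 0.18, adjusted p = 2.0e-09). Igf2 (chr7:142650766-142666816), the growth factor next to it, was at 0.575, 0 and 0.303 on day 2 and 12.7, 1.5 and 1.87 on day 4, and most of its signal was in EV. Peg10, a retrotransposon-derived gene, rose from 321, 331 and 290.5 to 697, 712 and 684 (log2 fold change 1.15, SE 0.08, adjusted p = 2.3e-11), with the 3 lines in near step. It was at 461, 454 and 446 on day 6. Plagl1 rose by 1.02, and Mest, a call lost without either clone, and Zrsr1 were the remaining rises.

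The 3 noncoding RNAs of the Dlk1-Meg3 domain on chromosome 12 fell. Meg3 (chr12:109541001-109571726) went from 351, 214 and 236 to 184, 131 and 128, Rian (chr12:109603940-109661716) from 241, 219 and 202 to 127, 102 and 86 and Mirg (chr12:109729764-109749460) from 20.1, 17.4 and 18.2 to 9.2, 6.52 and 6.53, with log2 fold changes of -0.84, -1.08 and -1.23 (adjusted p = 4.5e-08, 4.9e-09 and 2.8e-05). The days were separate in each. Phlda2 fell from 54.2, 68.4 and 69.2 to 34.5, 29.7 and 27.4, Impact from 217, 358 and 324 to 147, 203 and 186, and Cdkn1c, the inhibitor p57, from 55.7, 24.8 and 27.1 to 26.2, 19.9 and 19.4. For Cdkn1c, EV on day 2 was highest, and the call was lost without that library, without the block and without the variance trend. Leaving out single lines or libraries gave 4 to 7 rises and 5 to 8 falls.

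Genes of the 2-cell-like state, a rare state of embryonic stem cell cultures, fell: of 4 tested, all 4 were called, with a median log2 fold change of -1.57. Zscan4d was at 120.3, 66.8 and 59.1 in EpiLCs, 27.4, 20.2 and 19.2 on day 2 and 5.67, 2.67 and 1.87 on day 4 (log2 fold change -2.48, SE 0.17, adjusted p = 2.3e-11), and Zscan4c, Zfp352 and Usp17la also fell, the call of Zfp352 being lost without clone 2. The Zscan4 and Usp17 genes are multigene families whose members share reads.

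Genes of cytosolic ribosomal proteins fell in part, with 23 falls and 3 rises of 87 tested and a median log2 fold change of -0.23. Rps24 fell from 139.6, 157 and 158 to 101, 95.3 and 103 (log2 fold change -0.60, adjusted p = 8.4e-06) and Rps20 rose from 26.6, 15.6 and 17.7 to 40.5, 34.4 and 39.4. These genes have many processed copies. Leaving out single lines or libraries left 6 to 21 falls: 6 without clone 2, 7 without its day 2 library, 9 without clone 1 and 10 without its day 4 library. Of 85 nuclear genes of the respiratory chain, 2 rose and 7 fell, with 0 falls without clone 2 and 9 without its day 4 library. Of 7 tested protein genes of the mitochondrial genome, mt-Co1 and mt-Cytb fell, and none of the 7 was called without clone 1, without its day 2 library or without clone 2, while 4 fell without EV.

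Of 19 targets of the stress factor ATF4, 4 rose and 4 fell. Psat1 and Phgdh, enzymes of serine synthesis, fell, Psat1 from 307, 383 and 402 to 186, 242 and 227 (log2 fold change -0.73, SE 0.07, adjusted p = 1.7e-08) and Phgdh from 14.9, 11.9 and 15.6 to 6.28, 8.52 and 8.96, together with Mthfd2 and Pycr1. The regulators Atf5, Ddit3 and Trib3 rose, Atf5 from 34, 27.4 and 27.6 to 48.7, 49.97 and 53, as did Ddit4. Without EV, 8 of the 19 rose, without clone 1, 1 rose and 3 fell, and without clone 2, 1 rose and 1 fell; without the block 2 rose and 3 fell. The calls of Ddit3 and Trib3 were lost without either clone, and that of Phgdh without clone 2 and without the day 2 library of EV. Of 17 genes of cholesterol synthesis, 2 fell (Dhcr7 and Insig1) by 0.31 and 0.24 on the log2 scale and none rose. No fall was called in that list without clone 1 or clone 2, with edgeR, with DESeq2 or without the block, and 2 rises and 5 falls were called without EV.

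The step itself was then compared between the clones and EV. Since EV is 1 line, the comparison cannot tell an effect of Tex10 overexpression from a difference between lines. This test rests on 1 EV library per day, whose spread is taken from the other libraries. The step differed in 219 genes (1.44% of those tested), higher in the clones in 147 (0.964%) and lower in 72 (0.472%); 118 of the 219 were also called in the step as a whole. At an unadjusted p under 0.05, 1820 genes differed. DESeq2 called 42 genes, edgeR 261, and limma without the variance trend 0, with 1363 at an unadjusted p under 0.05, so the number of genes depends on the model. Of 29 genes named here for such a difference (Tubb3 was not among those checked), edgeR called 29, limma without the block 22 (not Cldn7, Emp1, Jund, Klf5, Nes, Padi2 or Sema6a) and limma with no filter on low values 9 (Cldn6, Dnmt3l, Egr1, Gpc3, Klf5, Mest, Myc, Tfap2c and Vim). DESeq2 called 6 of them (Myc, Slc2a3, Spry4, Tex10, Tfap2c and Vim) and gave no adjusted p for 13.

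Myc, the growth regulator, was at 69, 38.8 and 35.7 on day 2 and 73.7, 108 and 117 on day 4, with EV level and both clones rising (clones minus EV 1.47, SE 0.16, adjusted p = 7.5e-10). Gbx2, a homeobox target of LIF signalling, went from 46.5, 16 and 23.2 to 57.2, 77 and 65 (clones minus EV 1.53, SE 0.22, adjusted p = 1.6e-06). In Myc, Gbx2, Dnmt3l and Ankrd33b the clones began below EV on day 2 and ended above it on day 4. Sox1, a neural and epiblast factor, had the same shape at day 2 but ended below EV, from 22.4, 5.39 and 4.69 to 14.9, 13.2 and 9.33.

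The 5 genes named with a lower step in the clones began above EV on day 2. The heparan sulfate proteoglycan Gpc3 went from 32.2, 49.1 and 50.3 to 35.6, 16.7 and 18.1 (clones minus EV -1.60, SE 0.25, adjusted p = 1.2e-05), and the arginine deiminase Padi2 from 27.7, 60.9 and 48.3 to 28.5, 20.9 and 17.4. In both, EV hardly moved. The difference of Padi2 was also called with edgeR, but not with another pseudocount, filter or scaling, without the block or without the trend. The change of Fos came mostly from EV, from 6.9, 18.2 and 23.8 to 23.6, 22.4 and 24.5 (clones minus EV -1.48, adjusted p = 0.024), and its rise over the 3 lines was not called with edgeR, with DESeq2 or without EV. Sema6a and Cldn7 were the other members of the lowest 5, with differences of -1.35 and -1.19.

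The DMSO cells of the degron line offered the same interval in a separate experiment, with 2 replicates per day and a table normalized on its own, so that values are set side by side and their difference was not tested. There 916 of 16605 genes tested changed (5.52%), 405 higher (2.44%) and 511 lower (3.08%). Of the 3377 genes called in the vector lines that were tested in both, 71.7% had the same sign in DMSO cells, against 60.4% of all 14388 genes tested in both. Pearson's r of the changes across genes, which are not independent replicates, was 0.38. Genes called in both with the same direction numbered 459, which is 13.6% of the vector calls and 52% of the DMSO calls that were tested in both.

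Epiblast and naive genes were among those with the same direction. In DMSO cells, 8 of 13 formative genes fell and none rose, with a median of -0.78, and 6 of 16 naive genes rose and none fell. Tbx3 went from 210.4 and 209.7 to 417 and 388 (log2 fold change 0.94, SE 0.11, adjusted p = 7.7e-06), Klf4 from 106 and 97.3 to 223 and 192 and Dnmt3b from 106 and 136 to 46.2 and 57. Lefty1 fell from 103 and 113 to 29 and 27.8, Trh from 95.8 and 103 to 33.7 and 36.5 and Tfap2c from 104 and 90.9 to 59.8 and 51.8. Kit rose from 50.3 and 51 to 128 and 117 (log2 fold change 1.26, SE 0.18, adjusted p = 1.2e-04). Of the 12 largest rises in the vector lines, Nkx6-3 rose there from 1.38 and 0.95 to 8.05 and 8.07 and Sema5b from 10.4 and 9.36 to 17.2 and 21.7, while Ccn1 fell from 14.1 and 14.2 to 9.56 and 8.17. The remaining 9 were not called in DMSO cells. Aire was at 5.91 and 3.66 on day 2 and 2.47 and 2.29 on day 4 there (log2 fold change -0.75, adjusted p = 0.16), and Krt19, Fosl2, H19 and Adgra2 also had negative log2 fold changes, -0.47, -0.84, -0.44 and -0.60. Rian fell from 232 and 233 to 128 and 138. Of 17 late germline genes tested there, none was called by limma: Dazl went from 12.6 and 16.3 to 25 and 20.4 (adjusted p = 0.061) and Tex19.1 from 56.1 and 62.7 to 62.1 and 57.6.

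The p53, hypoxia and imprinted lists had other values there. Of 19 p53 targets, 8 fell in DMSO cells and none rose, with a median of -0.34. Of 12 hypoxia genes, Vegfa rose, from 35 and 27.4 to 56.9 and 58.6, and Bnip3 fell, from 13.6 and 11.4 to 5.8 and 7.07; Ndrg1 was at 7.29 and 10.2 and 6.87 and 5.78 and was not called. Of 21 imprinted genes, 8 fell and none rose, Cdkn1c from 29.7 and 38.4 to 3.76 and 5.48 and Peg3 from 239 and 245 to 90.9 and 102. Of 10 streak and mesoderm genes tested, 1 rose and 2 fell, with a median of -0.52, and of 87 ribosomal protein genes, 1 rose and none fell.

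Genes called in both experiments in opposite directions numbered 50: 41 rose in the vector lines and fell in DMSO cells, and 9 did the reverse. These genes are named after their values were seen. Peg10 fell in DMSO cells from 816 and 1117 to 239.7 and 335 (log2 fold change -1.75, SE 0.20, adjusted p = 9.2e-06), against a rise of 1.15 in the vector lines. Jun fell from 34.2 and 39.9 to 11 and 11.7 (log2 fold change -1.63, SE 0.14, adjusted p = 1.7e-07), and Egr1 from 48.9 and 37.3 to 7.09 and 13.9. Fos, Jund, Klf6, Ccn1, Ccnd2, Igf2, Dnmt3l, Mdm2, Perp, Plk2 and Phlda3 were also among the 41. In the vector lines the rises of Jund and Klf6 were not called without the variance trend. The call of Jund was also lost without clone 1, without the day 4 library of EV and with no filter on low values. Rps24 rose in DMSO cells from 144 and 154 to 201 and 202. The labels place the experiments in different batches of RNA with library kits that differ by batch, and they used different cell lines; kit, cell line and experiment cannot be told apart.

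**Figure D4:**
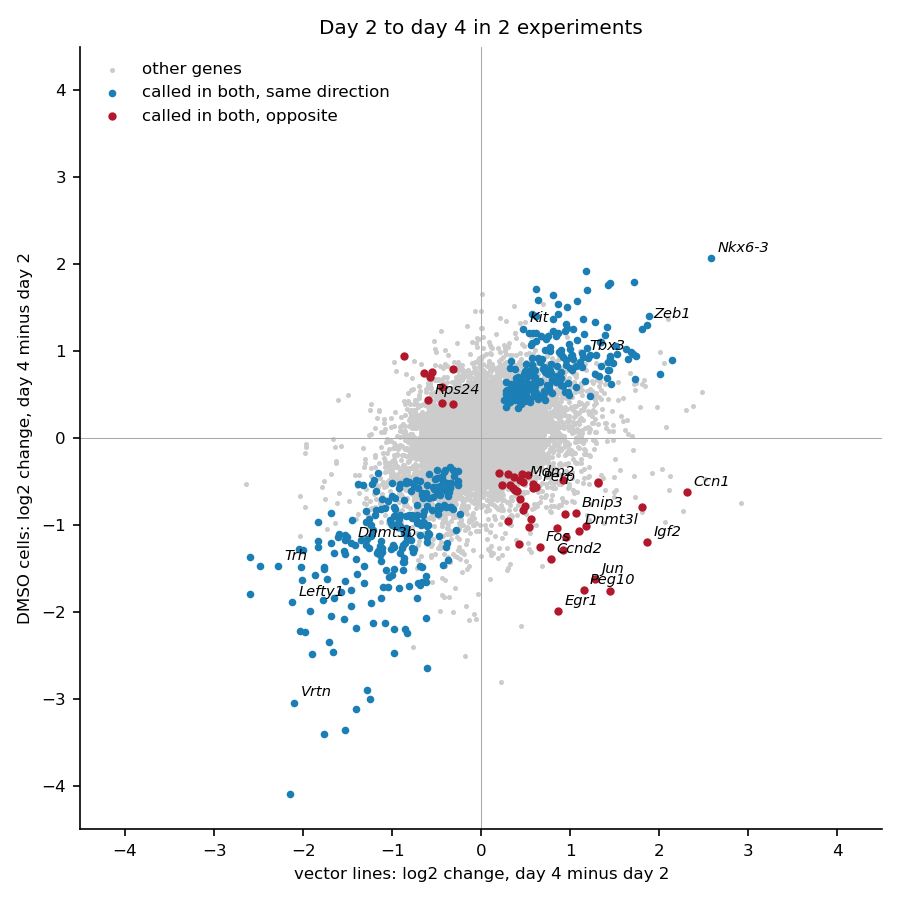
Log2 change from day 2 to day 4 in the vector lines (x axis) and in DMSO cells (y axis) for the 14388 genes tested in both. Blue points are the 459 genes called in both with the same direction, red points the 50 with opposite directions, 41 of them at lower right.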

How the data were processed

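RNA was sequenced from the EpiLC, day 2, day 4 and day 6 cultures of EV and both clones, and from PGCLCs of the degron experiment. Per the submitters' processing notes, reads were processed with Bowtie2 2.3.4.3, SAMtools 1.9, HTSeq 0.11.2 and edgeR 3.26.8 on mm10; the roles of the tools are not given in the sources used here. The authors deposited a signal per gene, CPM of a TMM-scaled library size, a scaling that takes most genes as unchanged. Dividing by the value of 1 read gave whole reads (within 0.05) in the overexpression table, so depth is known; intervals would cover counting error only, and the labels do not say that cultures were independent. The authors also deposited log2 fold changes and p-values of their own comparisons, which were not used.

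The 15255 genes averaging 1 or more across the 12 libraries were tested on log2(value + 1) with limma 3.58.1 (R 4.3.3), variance trend on, stage and line in the model, and Benjamini-Hochberg adjustment over all genes tested; genes were called at an adjusted p under 0.05. The clones were compared with EV by the difference of their steps. The DMSO table was fitted in the same way with its groups and no block. Day 2 and day 4 libraries of the same line deviated together from the mean of their day (correlation across genes 0.304 for EV, 0.126 for clone 1 and 0.203 for clone 2), and the line is the block. Scripts were tested on simulated data. Alternatives were other pseudocounts, filters, scalings and variance models, edgeR 4.0.16 and DESeq2 1.42.0 on the recovered reads, fits without the block and without each line or library.

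Named genes were the 12 largest called rises and falls with separate days, a mean of at least 10 in the higher group and a named symbol, the 5 largest differences of clones from EV each way, Tex10, and defining or most changed members of each list. The members, lists and tests were chosen with earlier results of these data known. Gene positions are from GENCODE M21 (GRCm38), promoter windows from RefSeq (GRCm38.p6).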

Additional observations from a re-analysis of the deposited data

Results flagged for a closer look

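The step from day 2 to day 4 differed between the clones and EV, by the test of the difference itself, in 219 genes. This rests on the model: DESeq2 called 42 genes, and limma without the variance trend called 0, with 1363 at an unadjusted p under 0.05. Of the 29 genes listed next, DESeq2 called Myc, Slc2a3, Spry4, Tex10, Tfap2c and Vim and gave no adjusted p for 13, and 22 were called without the block. Among these 29, the clones' step was higher, on the log2 scale, by 2.15 for Ankrd33b, 1.65 for Dnmt3l, 1.57 for Sox1, 1.53 for Gbx2, 1.47 for Myc, 1.24 for Emp1, 1.06 for Etv4, 0.90 for Foxd3, 0.89 for Vim, 0.79 for Tex19.1, 0.73 for Spry4, 0.61 for Tex10, 0.55 for Mest and 0.44 for Klf5. The difference was -0.40 for Jund, -0.44 for Pfkp, -0.50 for Trp53inp1, -0.58 for Phlda3, -0.59 for Slc2a3, -0.63 for Nes, -0.77 for Cdkn1a, -0.80 for Egr1, -0.96 for Cldn6, -1.01 for Tfap2c, -1.19 for Cldn7, -1.35 for Sema6a, -1.48 for Fos, -1.50 for Padi2 and -1.60 for Gpc3. EV is 1 line, so vector and line cannot be told apart.

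In 50 genes the vector lines and the DMSO cells were called in opposite directions, and for 49 of them every sample of one experiment moved against every sample of the other; the difference was not tested. Of those that rose in the vector lines, the DMSO step was -0.86 for Bnip3, -0.62 for Ccn1, -1.39 for Ccnd2, -1.99 for Egr1, -1.26 for Fos, -1.20 for Igf2, -1.63 for Jun, -0.41 for Jund, -0.70 for Klf6, -0.51 for Mdm2, -1.75 for Peg10, -0.57 for Perp, -0.58 for Phlda3, -0.57 for Plk2 and -0.45 for Trp53inp1. Rps24 fell in the vector lines, and its DMSO step was 0.44.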

How the results depend on the processing

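The 3509 genes called in the vector lines became 2238 without the variance trend, 580 with a log2 fold change of at least 1 required, and 1564 to 4080 when single lines or libraries were left out: 1564 without clone 1, 1614 without clone 2 and 4080 without EV, while 2232 were called without the day 2 library of clone 2 and 2320 without the day 4 library of clone 1. Without the line as a replicate block 2552 genes were called, and 153 differed between clones and EV. The remaining settings gave 2503 to 3592. The 219 genes whose step differed between clones and EV became 866 with no filter on low values, of which only 40 were among the 219 (51% higher in the clones, against 67.1%), 42 with DESeq2 (78.6% higher), 35 with a difference of at least 1 and 0 with limma without the trend, where 1363 had an unadjusted p under 0.05. For this difference no fit without a clone or without a single library was run, so its dependence on single libraries was not tested. In DMSO cells, 916 calls became 341 with no filter, 445 without the trend, 551 with the 4 libraries alone, 355 with a log2 fold change of at least 1 (25.4% higher, against 44.2%), and 425 to 1104 when single libraries were left out: 425 without replicate 2 of day 2, 489 without replicate 1 of day 2, 1104 without replicate 1 of day 4. The DMSO replicate numbers mark no stated pairing (correlation of deviations 0.0927), and with them as a block 902 genes were called. The causes were not tested. Of 165 called genes checked, none reversed, and 116 kept their call in every fit without a line or library. In the settings other than leaving out samples, 123 lost no call. A gene that such a setting did not test, or gave no adjusted p, was counted there as kept, so 123 is an upper limit. Among the calls of the 165, 147 kept theirs without the block. Values near or under 3 reads (0.431 to 0.560 units), as those of T, Nog, Gata6 and Dppa3 on 1 of the days, rest on few reads, and counting error limits their precision.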
